A study of Mus musculus with 8 samples.

Results

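TRBV15, TRBV16 and TRBV17 are 3 neighbouring variable (V) gene segments of the mouse T cell receptor β (TRB) locus. Their members here are all barcodes without a multiplet mark whose TRB chain was called with one of these genes in any of the 14 deposited tables. They made up 24263 of 188544 such barcodes (12.9%), with 6958 for TRBV15, 13014 for TRBV16 and 4291 for TRBV17. CD8+ T cells of 7 mice were taken from the thymus together with a tumor (mouse-164B, mouse-164C, mouse-160A, mouse-160C, mouse-160B) or, in mouse-155C and mouse-155A, the spleen, and their receptor chains were sequenced per cell after barcoding in wells. The study used Pdcd1fl/fl control mice and Pdcd1 cKO mice, in which Cre under the E8I enhancer of Cd8a removes the gene for PD-1 from CD8+ T cells. Thymus and spleen cells were selected with a CD8a+ T cell isolation kit and tumor cells with CD8 (TIL) microbeads, and since the tables hold receptor chains alone, other markers of CD8+ T cells could not be read. The labels do not tie a table to a genotype or tumor model, so each table and mouse is described on its own, with no replicates of a table, no groups and no tests. The question asked of each mouse was how the use of these genes and their clones differed between the thymus and the second tissue.

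A TRB chain is assembled in the thymus by joining a V, a D and a J segment, and the junction forms the third complementarity-determining region (CDR3), the loop that most often meets the peptide. The V segment itself encodes the other loops, CDR1 and CDR2, so the choice of V gene shapes how the chain meets the MHC molecule. Antibodies against V families know these segments under older names, Vβ12 for TRBV15, Vβ11 for TRBV16 and Vβ9 for TRBV17, and Vβ11 and Vβ12 are known for the removal of thymocytes by viral superantigens in mouse strains that express the MHC molecule I-E.

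In the GENCODE M39 annotation of GRCm39 all 3 are TR_V_gene segments with 2 coding exons each on the plus strand of chromosome 6. TRBV15 (Trbv15) lies at chr6:41118122-41118592, TRBV16 (Trbv16) at chr6:41128674-41129164 and TRBV17 (Trbv17) at chr6:41139996-41140490. The second exon holds the part that remains in the receptor, and its 3′ end is where joining takes place. These ends are shown because they set the first residues of the CDR3. Capitals mark the germline CDR3 part, from the codon of the conserved cysteine to the last base of the exon.

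TRBV15, chr6:41118549-41118592, plus strand: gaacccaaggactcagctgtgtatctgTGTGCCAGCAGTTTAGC
TRBV16, chr6:41129121-41129164, plus strand: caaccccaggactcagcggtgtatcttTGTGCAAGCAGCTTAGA
TRBV17, chr6:41140447-41140490, plus strand: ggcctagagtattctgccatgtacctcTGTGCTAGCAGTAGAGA

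Each end gave 17 germline bases to the CDR3. They translate to CASSL in TRBV15 and TRBV16 and to CASSR in TRBV17. Over the V exon, TRBV15 and TRBV16 were identical at 72.9% of 299 aligned positions, while TRBV17 matched TRBV15 at 53.5% and TRBV16 at 48.3%. The recombination signal that follows each exon is shown next, with its heptamer and nonamer in capitals and the 23 bases of the spacer in lower case.

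TRBV15, chr6:41118593-41118631, plus strand: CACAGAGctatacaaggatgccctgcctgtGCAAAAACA
TRBV16, chr6:41129165-41129203, plus strand: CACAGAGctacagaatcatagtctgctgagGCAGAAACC
TRBV17, chr6:41140491-41140529, plus strand: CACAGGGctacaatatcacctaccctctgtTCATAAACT

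All 3 heptamers differed from the consensus CACAGTG at 1 base. The nonamers differed from the consensus ACAAAAACC at 2 bases in TRBV15 and TRBV16 and at 3 in TRBV17. Of the 21 plus-strand TRBV segments annotated as TR_V_gene, 33.3% carried the exact heptamer and 4.76% the exact nonamer at this spacing. The bases after each annotated exon were read without a search for the signal. In TRBV3 (6 heptamer and 7 nonamer mismatches) and TRBV21 (4 and 4) this position may miss it. The percentages therefore describe that position only.

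The tables held 5281 to 29894 TRB barcodes, of which 19.2% to 44.4% also carried a TCRα (TRA) chain. Depth per barcode was low, with a median of 1 or 2 TRB transcripts and 45.7% to 73.5% of barcodes at 1 transcript. Where a share is given with a range in brackets, this is its exact (Clopper–Pearson) 95% binomial interval, which covers counting error only. No barcode was found in more than 1 table, since the first-round well is part of the barcode and marks the sample. Part of the TRB chains was found in tables of several mice, and in most tables more often in barcodes with 1 transcript than in those with more, with the values and exceptions given later. Shares are also given for chains with at least 2 TRB transcripts in a barcode.

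By barcodes, the 3 genes held the same order in all 7 thymus tables, with TRBV16 highest, TRBV15 next and TRBV17 lowest. Among paired cells TRBV17 stood above TRBV15 in 2 of them, with 3.87% against 2.90% in mouse-155C and 3.48% against 2.76% in mouse-160B. TRBV16 made up 6.52% (mouse-160B) to 7.16% (mouse-155C) of the TRB barcodes, with a median of 6.72%, the sixth highest of the 24 TRBV genes found. For TRBV15 the median was 3.88%, from 3.49% in mouse-160B up to 4.22% in mouse-160A. TRBV17 made up 2.22% (mouse-155A) to 2.83% (mouse-160B), with a median of 2.50%. The highest thymus value was 1.21 times the lowest for TRBV15. This is close to the median of 1.20 over the 19 TRBV genes whose median share over the 14 tables reached 0.5%.

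Outside the thymus the shares spread further, and most of the spread lay in tumors. TRBV15 made up 4.42% (4.03 to 4.83) of the spleen table of mouse-155A and 3.48% (3.05 to 3.96) of that of mouse-155C. Tumor shares of TRBV15 were lowest in mouse-160A (1.61%, 1.29 to 1.99), followed by mouse-160C (2.66%), mouse-164B (2.96%), mouse-160B (3.67%) and mouse-164C (4.20%). The interval of the tumor lay below that of the thymus in mouse-160A, mouse-160C and mouse-164B, and the intervals overlapped in the other 4 mice. The largest fall was in mouse-160A, to 0.382 times the thymus share.

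Of the 3 genes TRBV17 had the widest range over the tables, with a highest value 3.74 times the lowest. The same ratio was 2.74 for TRBV15 and 1.80 for TRBV16. Over the 19 TRBV genes named above it ran from 1.36 to 4.68, with a median of 2.74. In the spleen TRBV17 stood at 2.60% (mouse-155A) and 2.58% (mouse-155C), where the intervals overlapped those of the thymus. Tumor shares, from low to high, were 0.757% (0.542 to 1.03) for mouse-160A, 1.07% (0.901 to 1.26) for mouse-160C, 1.79% (1.58 to 2.01) for mouse-164B, 2.19% (2.02 to 2.36) for mouse-164C and 2.51% (2.31 to 2.74) for mouse-160B. All 5 tumor shares were below those of the thymus of the same mouse, and the intervals were apart in all of these mice but mouse-160B.

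TRBV16 went both ways. Its spleen shares were 8.38% (7.86 to 8.93) in mouse-155A and 6.94% (6.33 to 7.59) in mouse-155C, and its tumor shares ran from 4.67% in mouse-160C over 6.24% in mouse-164B, 6.46% in mouse-160A and 7.48% in mouse-160B to 7.90% in mouse-164C. The second tissue lay above the thymus with intervals apart in mouse-155A, mouse-160B and mouse-164C, and below it in mouse-160C.

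These falls were seen when cells were counted and were smaller or gone when every distinct TRB chain (V gene, CDR3 amino acids and J gene) was counted once per table. The tables also differed in how much of them a few chains took up, and whether this bears on the falls was not tested. The 10 leading chains held 44.8% of the TRB barcodes of mouse-160A tumor, 31.4% of mouse-160C tumor, 18.6% of mouse-164B tumor, 14.6% of mouse-164C tumor and 5.23% of mouse-160B tumor, against 1.84% to 4.63% in thymus tables. Of those 10 chains, 2 used a member gene in mouse-160B tumor and 0 did in mouse-160C tumor. In mouse-160A, mouse-164B and mouse-164C tumor 1 did. The 3 genes made up 12.9% of all TRB barcodes of the series, and such small counts do not tell these tables apart. By distinct chains, TRBV15 and TRBV16 were higher in the second tissue in 7 of 7 mice and TRBV17 in 4 of 7. The ratio to the thymus lay between 0.937 and 1.34 for all 3 genes. The intervals of both tissues overlapped in 7 of 7 mice for TRBV15 and for TRBV17. For TRBV16 they were apart upward in mouse-155A, mouse-160B and mouse-164C.

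The distinct-chain shares of a small table have a limit of their own. Of the 1662 distinct TRB chains of mouse-160A tumor, 328 were seen in a barcode with at least 2 TRB transcripts, and the share of TRBV15 was 4.51% of the former and 1.83% (0.674 to 3.94) of the latter, which is 6 chains. TRBV17 gave 2.29% and 1.22% (0.333 to 3.09) there. With this stricter count, TRBV16 was higher outside the thymus in 7 of 7 mice, by 1.03 to 1.56 times. TRBV15 was higher in 6 of 7, with ratios to the thymus from 0.385 to 1.31, and TRBV17 in 5 of 7, with ratios from 0.576 to 1.55. The intervals were apart upward in mouse-155A, mouse-160B and mouse-164C for TRBV16, in mouse-160B and mouse-164C for TRBV15 and in mouse-155A for TRBV17. They were apart downward in mouse-160A for TRBV15. The stricter TRBV16 share was 10.9% (9.88 to 11.9) in mouse-155A spleen against 6.93% (6.09 to 7.85) in its thymus, and 10.5% (9.94 to 11.1) in mouse-164C tumor against 7.20% (6.68 to 7.74).

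**Figure D1:**
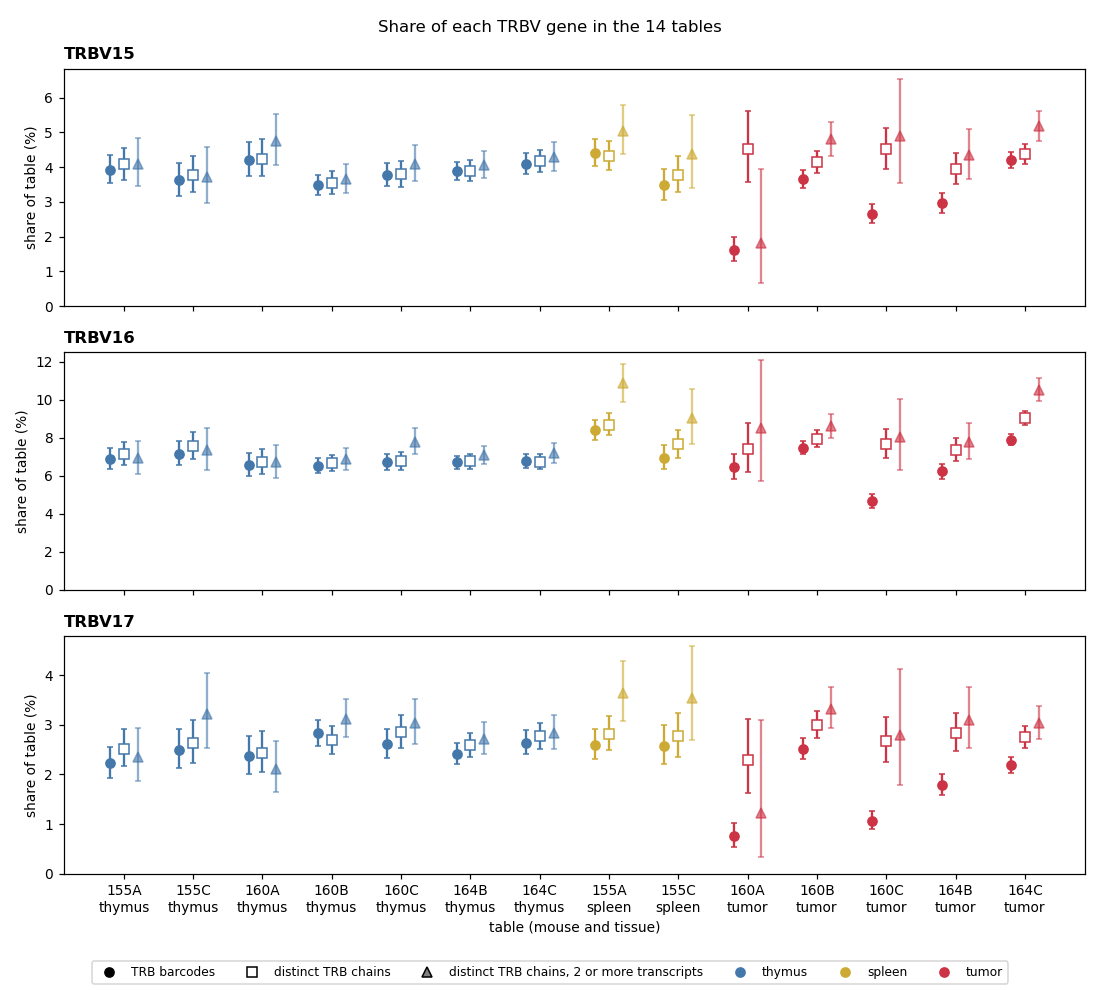
Share of TRBV15, TRBV16 and TRBV17 (percent, vertical axes) in each of the 14 tables (horizontal axis), as a share of TRB barcodes (filled circles), of distinct TRB chains (open squares) and of distinct chains with at least 2 TRB transcripts (triangles). Bars are exact 95% intervals and colours mark the tissue. The circles of mouse-160A and mouse-160C tumor stand below the thymus for TRBV15 and TRBV17, while the squares stay between 3.56% and 4.51% for TRBV15 and between 2.29% and 3.00% for TRBV17, and the triangles of mouse-160A tumor have the widest intervals.

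Over the 14 tables, the cell share of TRBV16 followed most closely that of TRBV12-2 (Spearman 0.81), TRBV15 (0.61) and TRBV12-1 (0.49). For TRBV15 the nearest genes were TRBV16 (0.61), TRBV12-2 (0.59) and TRBV12-1 (0.53), and for TRBV17 they were TRBV3 (0.69), TRBV19 (0.64) and TRBV12-2 (0.45). Shares of 1 table sum to a whole, and both tables of a mouse share the animal, so these are descriptions. With distinct chains most of these values were lower, at 0.33 for TRBV17 with TRBV3, -0.03 for TRBV17 with TRBV19, 0.27 for TRBV15 with TRBV12-2, 0.44 for TRBV15 with TRBV16 and 0.72 for TRBV16 with TRBV12-2.

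Clonotypes, pairs of a TRA and a TRB CDR3 amino acid sequence, could be read in the cells with both chains. TRBV15 had 2012 such cells in 1842 clonotypes counted table by table, TRBV16 had 4271 cells in 3990 clonotypes and TRBV17 had 1608 cells in 1527 clonotypes. Clonotypes of more than 1 cell were found mostly in tumors. Summed over the 5 tumor tables, they held 19.3% of the TRBV15 cells, 15.7% of the TRBV16 cells and 8.92% of the TRBV17 cells. Single tumors differed widely, from 4.49% (mouse-160B) to 53.8% (mouse-160A, 13 cells) for TRBV15. TRBV16 ran from 5.96% (mouse-160B) to 53.2% (mouse-160A). TRBV17 ran from 0% (mouse-160A and mouse-160C, 4 and 19 cells) to 20.8% (mouse-164B). The summed value over all paired tumor cells was 36.0%. Without the tumor table of mouse-164C, the values were 14.1% for TRBV15, 21.2% for TRBV16 and 13.8% for TRBV17, against 45.0% over all. TRBV16 then stood above TRBV15. In the spleen, 0 of 154 TRBV15 cells and 0 of 390 TRBV16 cells were in such clonotypes, which allows a share of up to 1.95% and 0.769%, and 3 of 145 TRBV17 cells (2.07%) were, against 2.10% over all paired spleen cells.

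The thymus showed another order. There, clonotypes of more than 1 cell held 2 of 900 TRBV15 cells (0.222%), 6 of 1811 TRBV16 cells (0.331%) and 44 of 824 TRBV17 cells (5.34%, interval 3.91 to 7.10), against 2.33% over all paired thymus cells. The TRBV17 cells came from 2 tables, 36 of 200 cells in mouse-160B thymus (18.0%, 12.9 to 24.0) and 8 of 48 in mouse-155C thymus (16.7%, 7.48 to 30.2). The other 5 thymus tables had 0, which allows a share of up to 1.46% in mouse-164B with 206 cells, 1.81% in mouse-164C, 2.50% in mouse-160C, 6.98% in mouse-160A with 43 cells and 7.32% in mouse-155A with 41 cells. Without mouse-160B thymus the TRBV17 value was 1.28%, and the value over all paired thymus cells was 1.56%, so that TRBV17 no longer stood above it. The few multi-cell clonotypes of the other genes lay in 1 table for TRBV15, whose value was 0% without mouse-164B thymus, and in 2 for TRBV16, whose value was 0.131% without mouse-160C thymus.

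**Figure D2:**
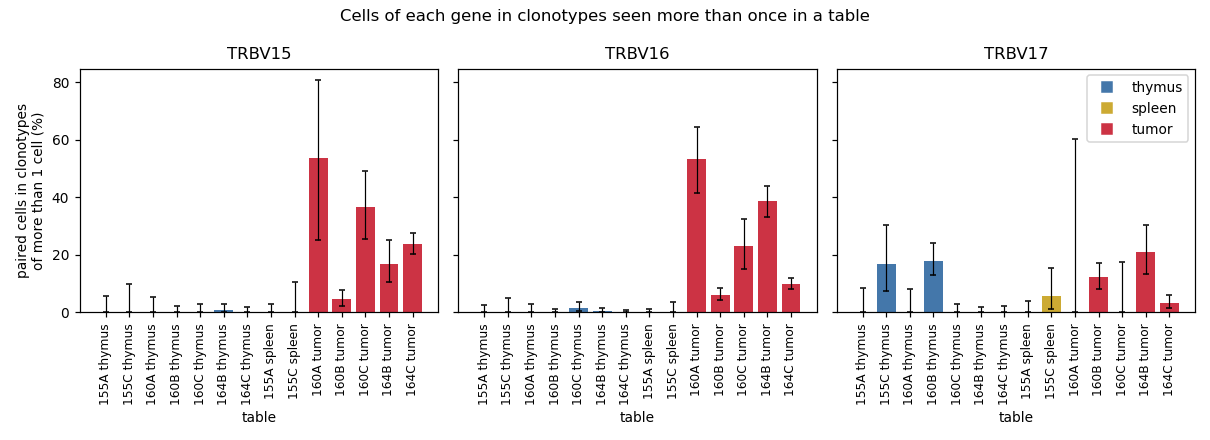
Share of the paired cells of each gene that belonged to clonotypes of more than 1 cell in the table (percent, vertical axis), for each table (horizontal axis), with exact 95% intervals as bars and the tissue as colour. TRBV15 and TRBV16 rise above 4% in tumor tables alone, whereas TRBV17 reaches 18.0% in mouse-160B thymus and 16.7% in mouse-155C thymus. The wide interval of TRBV17 in mouse-160A tumor rests on 4 cells.

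Of the 6 TRBV17 clonotypes with more than 1 thymus cell, the 4 that were also found in the second tissue are shown with the nucleotide sequence of their TRB CDR3, since they held 39 of the 44 cells. The other 2, both of mouse-160B and not found in its tumor as a pair, were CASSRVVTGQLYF with 2 cells and a clonotype of 3 cells that had the TRB chain of the first clone with another TRA sequence. Capitals mark the bases that neither the germline V end nor the germline J segment matches without a break, and so hold D bases and added bases.

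TRBV17 with TRBJ2-2, first clone, mouse-160B: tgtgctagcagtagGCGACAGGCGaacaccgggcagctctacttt
TRBV17 with TRBJ2-2, second clone, mouse-160B: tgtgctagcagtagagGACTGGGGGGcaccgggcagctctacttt
TRBV17 with TRBJ2-7, mouse-160B: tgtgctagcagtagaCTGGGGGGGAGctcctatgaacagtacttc
TRBV17 with TRBJ2-7, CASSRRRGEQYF, mouse-155C: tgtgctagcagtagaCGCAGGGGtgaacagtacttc

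Each of the 4 had 1 TRB nucleotide sequence in its annotated cells of both. The first TRBJ2-2 clone of mouse-160B, with a TRAV9D-3 and TRAJ9 chain, had 15 thymus cells, 0.261% of the paired cells of the table, and 7 tumor cells, 0.0840%. It was the most frequent TRBV17 clonotype of both tables of that mouse, and the clonotype of 3 cells named above shared its TRB chain. Of the 19 paired cells of mouse-160B thymus with this chain, 4 carried both TRA sequences, so these 2 clonotypes may not be separate clones. The second clone (TRAV6N-6) had 14 thymus and 2 tumor cells, and the TRBJ2-7 clone (TRAV21-DV12) had 2 and 1. These smaller clones of mouse-160B were named after their values were seen. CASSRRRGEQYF of mouse-155C, with TRAV7-3, had 8 cells in the thymus, 0.645% of its paired cells, and 3 in the spleen. The 3 clones of 8 to 15 thymus cells came from 6 or 7 of the 8 sublibraries and from 2 to 4 first-round wells, with median TRB counts of 3 to 5 transcripts. In none of the shared clonotypes of the 3 genes did a thymus cell differ from a cell of the second tissue by the first-round well alone, with all other barcode parts identical.

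Sharing between tissues was otherwise rare for these genes. TRBV15 had 3 clonotypes in both tissues of a mouse, TRBV16 had 4 and TRBV17 had 4, of 170 over all TRBV genes. They held 0.444% (0.121 to 1.13) of the TRBV15 thymus cells, 0.331% (0.122 to 0.720) of the TRBV16 thymus cells and 4.73% (3.39 to 6.41) of the TRBV17 thymus cells, against 1.73% over all. One of the 3 TRBV15 clonotypes, in mouse-160B with 1 thymus and 1 tumor cell, was that of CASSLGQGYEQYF, which had 70 cells in mouse-164C tumor and is described further on. With at least 2 transcripts in each chain, TRBV15 shared 1 clonotype, TRBV16 shared 0 and TRBV17 shared 3. Over the 42 pairs of a thymus table with the second tissue of another mouse, the 3 genes shared 1, 2 and 0 clonotypes. The shared TRBV15 clonotype with the most cells was that of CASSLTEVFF with TRAV12-2 in mouse-164B, with 2 thymus cells and 16 tumor cells. For TRBV16 it was a TRAV6N-6 and TRBJ2-7 clonotype of the same mouse with 2 and 11, named after its values were seen. By the smaller of both tissue frequencies, TRBV16 was led instead by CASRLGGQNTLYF with TRAV16 in mouse-160C, with 2 thymus cells and 1 tumor cell.

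The largest TRBV15 and TRBV16 clones were those of tumors, while the largest TRBV17 tumor clone, with 12 cells, was below the 15 and 14 cells of mouse-160B thymus. Each of the following was the most frequent clonotype of its gene in its table, and their TRB junctions are shown with the same use of capitals.

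TRBV15, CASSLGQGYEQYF, mouse-164C tumor: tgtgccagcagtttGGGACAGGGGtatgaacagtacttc
TRBV15, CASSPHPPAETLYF, mouse-160C tumor: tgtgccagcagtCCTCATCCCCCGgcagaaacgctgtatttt
TRBV15, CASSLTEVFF, mouse-164B tumor: tgtgccagcagtttGacagaagtcttcttt
TRBV16, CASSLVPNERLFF, mouse-164B tumor: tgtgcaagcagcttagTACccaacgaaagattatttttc
TRBV16, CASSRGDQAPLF, mouse-160A tumor: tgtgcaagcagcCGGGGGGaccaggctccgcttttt
TRBV17 with TRBJ2-1, mouse-164B tumor: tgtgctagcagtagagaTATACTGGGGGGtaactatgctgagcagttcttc

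Among TRBV15 clones, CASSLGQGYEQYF with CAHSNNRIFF as its TRA CDR3 (TRAV8N-2, TRBJ2-7) had 70 cells in mouse-164C tumor, 0.527% (0.411 to 0.665) of its paired cells. A second TRA sequence came first in 26 further cells with this TRB chain, and 75 of the 101 paired cells with the chain carried both TRA sequences. The clonotype count of 70 is therefore below the number of cells with the chain, and its printed junction rests on 22 annotated cells, since the nucleotide annotation covered 30.3% of the member barcodes of that table. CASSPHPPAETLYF (TRAV9-1, TRBJ2-3) had 23 cells in mouse-160C tumor, 33.8% of the paired TRBV15 cells there. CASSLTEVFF (TRAV12-2, TRBJ1-1) had 16 in mouse-164B tumor, and its junction held 1 base that neither the V end nor the J segment gave.

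Among TRBV16 clones, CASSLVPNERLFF (TRAV7-4, TRBJ1-4) had 55 cells in mouse-164B tumor, 0.933% (0.704 to 1.21) of its paired cells. The leading TRBV16 clonotypes were smaller in mouse-164C tumor (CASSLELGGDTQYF, 26 cells), mouse-160B tumor (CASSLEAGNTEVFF, 12 cells) and mouse-160C tumor (a TRAV19 and TRBJ2-7 clonotype, 6 cells). The chain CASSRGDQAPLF of mouse-160A tumor was in more cells than the 12 of its leading clonotype (TRAV13D-2, TRBJ1-5). It was present in 180 of the 341 TRBV16 barcodes of that table (52.8%), and 80.0% of these had no TRA chain. Of its 36 paired cells, 11 had one other TRA sequence first, and 2 carried both.

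For TRBV17, the TRBJ2-1 clone of mouse-164B tumor printed above (TRAV3-1) had 12 cells, and the leading clonotype of mouse-164C tumor, with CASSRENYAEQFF (TRAV9D-3, TRBJ2-1), had 6, with 8 barcodes holding the chain. In mouse-160A and mouse-160C tumor, where 4 and 19 paired TRBV17 cells were found, no TRBV17 clonotype had more than 1 cell.

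The TRB CDR3 sequences found in the most mice were 6 of TRBV15 and 12 of TRBV16, each in all 7 mice, and for TRBV17 none was found in more than 6. For each gene the sequence with the most barcodes among those tied is described here, a choice that favours chains of large clones, and all 3 were chains of the tumor clones above. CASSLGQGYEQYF with TRBV15 was found in all 14 tables, in 184 barcodes of mouse-164C tumor and 168 elsewhere. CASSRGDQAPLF with TRBV16 was found in all 14 tables too, in 180 barcodes of mouse-160A tumor and 98 elsewhere. The TRBV17 and TRBJ2-1 chain printed above was found in 6 mice and 10 tables, in 23 barcodes of mouse-164B tumor and 19 elsewhere. Elsewhere 97.6%, 98.0% and 94.7% of these barcodes had 1 TRB transcript, against 47.3%, 31.7% and 26.1% in the table with the clone. A TRA chain was missing in 94.6%, 98.0% and 100% of them.

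The nucleotide sequences did not tell these barcodes apart from the clone. In the annotated barcodes of other mice, 139 of 139 with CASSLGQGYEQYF, 88 of 88 with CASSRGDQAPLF and 17 of 17 with the TRBV17 chain had the sequence printed above. Of the barcodes elsewhere, 58 of 168, 32 of 98 and 3 of 19 matched a barcode of the clone in the sublibrary and in all wells but that of the first round, which marks the sample. How such barcodes came about was not tested.

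**Figure D3:**
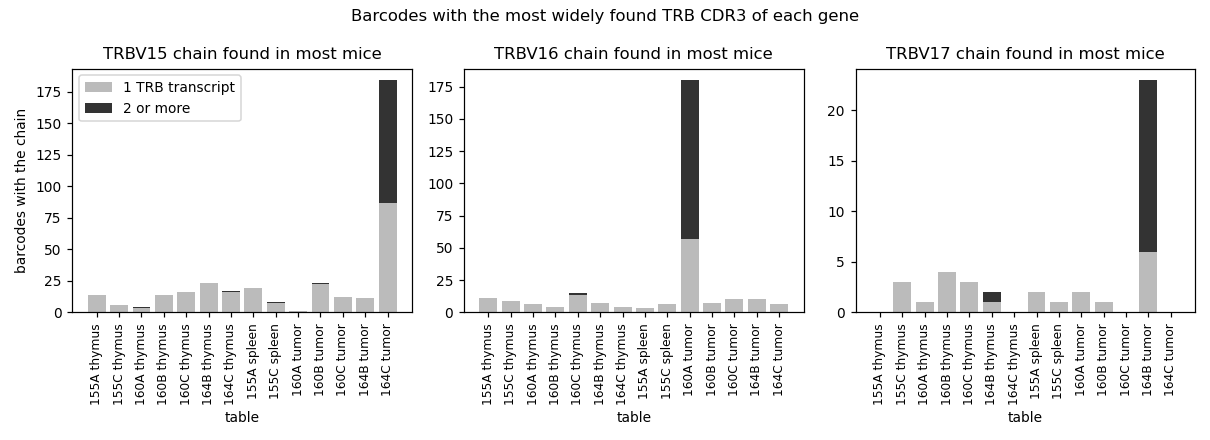
Barcodes (vertical axes, whose ranges differ) with the TRB CDR3 found in the most mice for each gene (of those tied, the one with the most barcodes), in each table (horizontal axis), divided into barcodes with 1 TRB transcript (light) and with 2 or more (dark). In each panel a single tumor table holds 97, 123 or 17 barcodes with 2 or more transcripts, while no other table holds more than 2.

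Over all chains, 24.6% of the TRBV15 CDR3 sequences, 23.7% of TRBV16 and 18.9% of TRBV17 were found in more than 1 mouse, with 21.5% for all TRBV genes. When only paired barcodes with at least 2 TRB transcripts were counted, the shares were 2.28%, 3.43% and 1.13%. This left 1488 of 4119, 2975 of 7593 and 1148 of 3016 sequences. The filter also removed barcodes of the other mice, so these shares do not compare directly with the former. No value over all TRBV genes is given for it. Among annotated CDR3 sequences of more than 1 mouse, 85.6%, 78.2% and 84.5% had a single nucleotide sequence. The barcodes with 1 TRB transcript had a chain whose nucleotides were also found in another mouse in 54.6% of cases for TRBV15, 53.1% for TRBV16 and 41.2% for TRBV17, and those with more transcripts in 29.3%, 33.6% and 25.1%. For paired barcodes with more transcripts these shares were 27.5%, 30.2% and 25.0%, with any annotated barcode of another mouse counted as a match. Tables differed widely, from 15.9% to 76.0% for TRBV15 and from 16.0% to 91.8% for TRBV16 at 2 or more transcripts, paired or not. In mouse-160A and mouse-160C tumor the direction turned for both, with 79.4% at 1 transcript against 91.8% at more for TRBV16 in mouse-160A, 69.5% against 79.9% in mouse-160C, and for TRBV15 69.9% against 75.0% and 72.2% against 76.0%. TRBV17 was lower at 2 or more transcripts in every table.

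The junctions of the 3 genes differed in how much of the germline V end they kept. In thymus tables, with each distinct sequence counted once, TRBV15 chains had lost 4.25 bases of the V end on average (median of 7 tables, with their range in brackets here and in the CDR3 and segment shares that follow, 4.11 to 4.27), TRBV16 chains 3.01 (2.91 to 3.16) and TRBV17 chains 3.13 (3.03 to 3.25). The ranges of TRBV15 and the other genes did not overlap. The whole V end was kept in 3.32% (1.54 to 5.42) of TRBV15 chains, 17.3% (16.3 to 19.9) of TRBV16 chains and 15.8% (9.89 to 19.4) of TRBV17 chains. A base that matches by chance counts as kept here. Bases of neither V nor J averaged 10.7, 10.3 and 10.3, and in the spleen and tumor tables the median losses were 4.26, 3.07 and 3.06.

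The genes also differed in the first CDR3 residues. At position 5 of the CDR3, counted from 1 at the conserved cysteine, 56.0% (52.2 to 56.9) of the distinct TRBV17 chains of thymus tables had arginine, against 8.40% of TRBV15 chains, 4.11% of TRBV16 chains and 6.12% of all. Leucine stood there in 47.3% (44.6 to 48.8) of TRBV16 chains, 32.9% (28.7 to 35.4) of TRBV15 chains and 2.13% (1.16 to 4.41) of TRBV17 chains, against 21.6% of all. In 76.1% of the TRBV17 chains with the arginine, its whole codon lay in the part that matched the V end, as did that of the leucine in 83.5% of TRBV16 and 64.3% of TRBV15 chains. All 4 TRBV17 thymus clones above carried this arginine. TRBV15 chains had an arginine 1 residue earlier, at position 4, in 12.8% (11.8 to 15.4), against 3.67% of TRBV16, 4.56% of TRBV17 and 5.84% of all chains, and were above all chains in 14 of 14 tables.

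CDR3 length set TRBV15 apart from TRBV16. The mean over distinct chains was 13.76 residues for TRBV15, 14.14 for TRBV16 and 14.07 for TRBV17 (medians of the thymus tables), against 13.99 for all. TRBV15 was shorter than all chains and TRBV16 longer in every thymus, spleen and tumor table. TRBV17 was longer in 12 of them.

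The 3 genes also shared a pattern of J segments. The TRBJ2 cluster made up 68.8% of TRBV15, 67.3% of TRBV16 and 71.0% of TRBV17 chains (medians of the thymus tables), against 63.2% of all, and was above all chains in 7, 6 and 7 of the 7 thymus tables. TRBJ1-2 was low with each of them, at 3.38%, 5.37% and 4.03% against 7.43%, and lay below all chains in 14 of 14 tables for each gene. TRBJ2-7 was the leading J segment of all 3, with 22.1%, 19.1% and 19.6% of the distinct thymus chains, against 18.0% of all. The next was TRBJ1-1 for TRBV15 (14.5% against 12.3%), TRBJ2-5 for TRBV16 (13.3% against 11.2%) and TRBJ2-1 for TRBV17 (16.3% against 12.3%). TRBJ2-5 was above all chains in 14 of 14 tables with TRBV16 and below in 14 of 14 with TRBV15.

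D segment calls of TRBV16 lay apart from those of all chains. TRBD1 was called in 40.7% (39.4 to 42.5) of its distinct thymus chains against 44.9% of all, and TRBD2 in 32.7% (30.9 to 34.6) against 29.2%. TRBV16 lay below all chains for TRBD1 and above for TRBD2 in 14 of 14 tables. Both calls were made on short remnants, and 20.3% to 29.2% of the member chains of a thymus table had no D call.

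**Figure D4:**
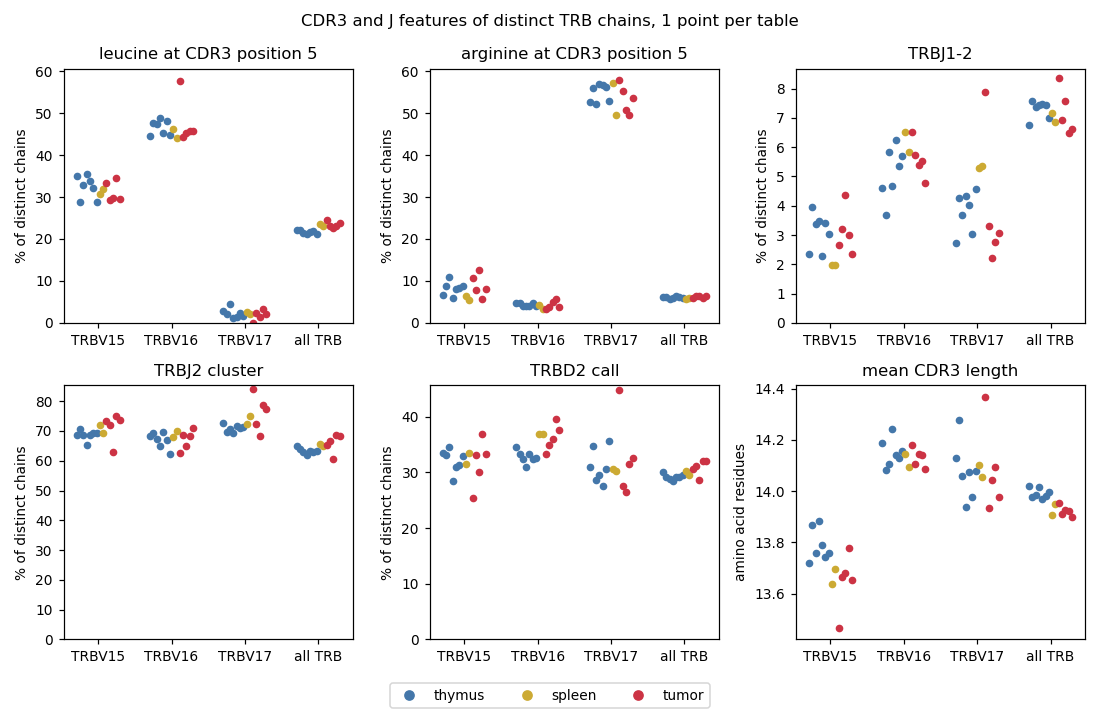
CDR3 and segment features of distinct TRB chains (percent of chains, or residues for the mean CDR3 length, whose axis does not start at 0) for TRBV15, TRBV16, TRBV17 and all TRB chains (horizontal axes), with 1 point per table coloured by tissue. Arginine at position 5 separates TRBV17 from the others in every table, and the points of TRBJ1-2 of each member lie below those of all TRB chains of the same table. The TRBV17 point of 7.89% in that panel is mouse-160A tumor, with 38 chains.

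The leading TRA partner was the same for the 3 genes. TRAV12-1 was the leading TRAV gene of all 3, with 9.34% of the distinct thymus clonotypes of TRBV15, 6.19% of TRBV16 and 8.02% of TRBV17, against 8.03% of all. The next was TRAV3-1 for TRBV15 (6.23%) and TRBV16 (5.92%), against 6.21% of all, and TRAV6-6 for TRBV17 (6.23%), against 4.16%. The pairing of TRAV11 or TRAV11D with TRAJ18, which marks invariant NKT-like cells and in mice is known to go mainly with other V families, was rare with these genes. It was found in 24 of 900 paired thymus cells of TRBV15 (2.67%, 1.72 to 3.94), 27 of 1811 of TRBV16 (1.49%, 0.985 to 2.16) and 18 of 824 of TRBV17 (2.18%, 1.30 to 3.43), against 8.33% over all TRBV genes. The value was below that over all in 6, 7 and 7 of the 7 thymus tables, the exception being TRBV15 in mouse-155C, with 4 of 36 cells. The TRAV1 and TRAJ33 pairing of MAIT-like cells was found in 0 of the 7891 paired member cells, which allows a share of up to 0.0380%. No value over all TRBV genes is given here for this pairing, so the 0 does not set these genes apart.

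In thymus tables, a TRA partner was found less often with TRBV15 than with any other TRBV gene of at least 200 thymus barcodes. The share was 26.6% (25.2 to 28.2) for TRBV15, 30.7% (29.5 to 31.9) for TRBV16 and 36.9% for TRBV17, with 33.2% over all. The next gene, TRBV31, had 28.4% (26.7 to 30.1), an interval that overlapped that of TRBV15. In tumor tables TRBV26 (31.3%) and TRBV5 (33.0%) lay below TRBV15 (33.2%). TRBV15 was below all TRB barcodes in 14 of 14 tables, TRBV16 in 10 and TRBV17 in 5. The order changed with the number of TRB transcripts. At 1 transcript, 6.39% (5.25 to 7.69) of TRBV15, 7.70% (6.74 to 8.74) of TRBV16 and 14.5% (12.4 to 16.9) of TRBV17 barcodes had a TRA chain, against 16.6% over all. At 2 transcripts the shares were 50.7% (43.7 to 57.7), 57.6%, 57.8% and 59.3%. At 5 to 8 transcripts TRBV16 stood above all barcodes, with 60.2% (57.2 to 63.2) against 51.5%, and TRBV15 at 48.5%. Above 8 transcripts TRBV15 (30.9%), TRBV16 (31.2%, 28.0 to 34.4) and TRBV17 (33.3%, 26.5 to 40.7) were all above the 25.0% over all. TRBV15 and TRBV16 barcodes nonetheless held more TRB transcripts on average, 4.67 and 4.61 against 3.72 over all barcodes (medians of the thymus tables), and were above all in 7 of 7 thymus tables, while TRBV17 had 3.43.

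**Figure D5:**
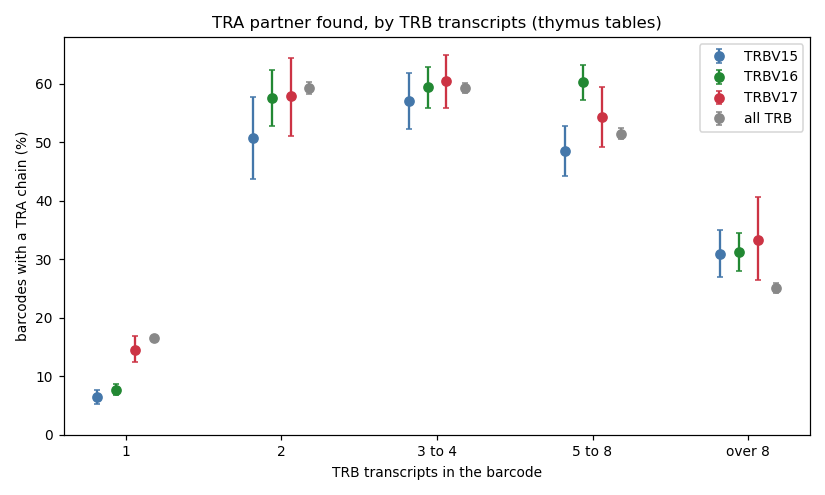
Share of thymus barcodes with a TRA chain (percent, vertical axis) by the number of TRB transcripts in the barcode (horizontal axis), for each member gene and for all TRB barcodes, over the 7 thymus tables, with exact 95% intervals as bars. At 1 transcript TRBV15 and TRBV16 stand at 6.39% and 7.70%, below 16.6% for all, and over 8 transcripts all 3 genes stand above it.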

How the data were processed

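Per the file headers, each deposited table held, per barcode, the TRA and TRB chain calls with whole-number transcript counts and a multiplet mark, made by the authors with the Parse Biosciences TCR pipeline, for which no version is stated in the sources used here. GRCm39 was the build per the submitters' processing notes. The deposited clonotype tables gave cell counts and each clonotype's fraction of counted cells, and all 55460 counts equalled a tally of the barcode tables. The 8 labelled samples are sublibraries that each hold cells of all tables, so mouse and tissue were read from the deposited table names. The deposited chain annotation with nucleotides covered 92.9% of member barcodes in mouse-160B thymus, 41.2% in mouse-164B thymus, 30.3% in mouse-164C tumor and all others in full.

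Shares were taken over barcodes without a multiplet mark, with exact 95% intervals (SciPy 1.17.1, pandas 2.3.3, Python 3.11.15), and the share calculation was tested on simulated data. A share of 0 was limited at 3 cells of the total. No gene was called from a test. Germline segments and coordinates came from GENCODE M39, with V exons aligned in Biopython 1.88. The text names, per gene and table, the most frequent clonotype of at least 5 cells, per gene the clonotype of both tissues of a mouse whose lower frequency was highest and the CDR3 found in the most mice, the 2 leading TRBJ and TRAV genes, and the 3 TRBV genes with the most similar shares. The members and lists were chosen with earlier results of these data known. Alternatives covered paired cells, transcripts, distinct chains, transcript minimums, multiplets, extra chains, clonotypes of several mice, NKT-like cells, nucleotide clonotypes and each sublibrary left out.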

Additional observations from a re-analysis of the deposited data

Results flagged for a closer look

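A barcode can hold a second TRB chain, which none of the shares above used. Among the 23835 barcodes with such a chain and without a multiplet mark, TRBV15 was the second chain in 815 (3.42%), TRBV16 in 1321 (5.54%) and TRBV17 in 497 (2.09%). The same gene was also the first chain in 185, 285 and 106 of them. These values are given because they come from data that the comparisons did not use.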

How the results depend on the processing

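Over 28 results, 202 values under alternative settings were computed, of which 167 were taken as the same and 35 as moved. Median shares were held to the exact interval of the table nearest the median, which covers counting error only. Thymus shares in clonotypes of more than 1 cell were held to their own exact interval. CDR3 and segment features were held to the range of the thymus tables. Counts, and values with 1 thymus table left out, were the same within 1.5 times. The alternatives with distinct chains of at least 2 transcripts and with single tables left out were chosen after seeing the data. With paired cells only, the median thymus share was 2.97% for TRBV15, 5.95% for TRBV16 and 2.74% for TRBV17, and the median outside the thymus was 2.39% for TRBV15. With transcripts in place of cells, the thymus medians were 4.66% for TRBV15 and 8.12% for TRBV16, the medians outside were 7.60% for TRBV16 and 1.98% for TRBV17, and TRBV16 was higher outside in 1 mouse. With distinct chains, the medians outside were 4.32%, 7.67% and 2.77% for TRBV15, TRBV16 and TRBV17, higher outside in 7, 7 and 4 mice. With distinct chains of at least 2 transcripts they were 4.80%, 8.59% and 3.11%, higher in 6, 7 and 5 mice. With barcodes of at least 2 TRB transcripts, the TRBV16 median outside was 8.04%, higher in 5 mice.

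With at least 2 transcripts in each chain, the clonotypes numbered 919, 1874 and 722, the shared clonotypes of TRBV15 and TRBV16 numbered 1 and 0, and the thymus share of cells in clonotypes of more than 1 cell was 0% for TRBV16 and 3.58% for TRBV17. With nucleotide clonotypes over annotated cells that of TRBV15 was 0%. By cells, TRBJ2-7 made up 23.9% of TRBV15. Leaving out 1 sublibrary at a time gave 1 to 2 mice with a higher TRBV17 share outside the thymus (1 without sublibrary 6). Leaving out 1 thymus table gave 0% to 0.289% for TRBV15 (0% without mouse-164B), 0.131% to 0.427% for TRBV16 (lowest without mouse-160C) and 1.28% to 7.12% for TRBV17 (lowest without mouse-160B) as the share in clonotypes of more than 1 cell. The cause of these shifts was not tested. Thymus and second tissue were set side by side within each mouse throughout, with no test. In every table at least 45.7% of the TRB barcodes had 1 transcript.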
